A study of Mus musculus with 24 samples.

Results

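The cells compared here were mouse melanoma lines in which 1 member of the MITF family was left to act alone. In the MITF/TFEB DKO, Mitf and Tfeb were both knocked out and only TFE3 remained, and in the MITF/TFE3 DKO, Mitf and Tfe3 were knocked out and only TFEB remained. They contributed 6 of the 24 libraries of the series, 3 for each line, and all 12010 genes of the deposited table were compared between them. Both lines came from B16F10-luc2, a B16-F10 melanoma line that carries a luciferase reporter, and both were kept in DMEM with 10% FBS under 10% CO2, with no treatment. The rest were the parental line, an MITF KO, a TFE3 KO, a TFEB KO, the TFEB/TFE3 DKO and the triple KO (TKO), again with 3 libraries each. Tfeb and Tfe3 were cut with Cas9 and a guide RNA, and every KO line grew from a single isolated clone, so the genotype and the clone cannot be told apart. The MITF KO line, made in earlier work, carries a frameshift and may keep a truncated form of MITF, and per the study Tfe3 and Tfeb were knocked out in it and in the parental cells, so both lines compared here go back to it. Whether the TKO was made from either of them is not given in the sources used here. The labels do not say that the 3 libraries of a line came from separate cultures, so the p-values below measure only the spread between these libraries, which may be technical.

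MITF, TFEB and TFE3 are basic helix-loop-helix leucine zipper factors that bind as dimers to E-box sequences with the core CACGTG or CATGTG. In melanocytes MITF is known for driving the genes of melanin synthesis, and TFEB and TFE3 are known for driving lysosome and autophagy genes when nutrients are short and mTORC1, which keeps them out of the nucleus, is inactive. The comparison asks in which genes cells that keep only TFE3 differ from cells that keep only TFEB.

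Each library counted reads at the 3′ end of poly(A) transcripts, 1 read per molecule sequenced whatever the gene's length. Levels are given as CPM, the reads of a gene relative to the size of its library, which the authors had scaled between libraries. The 6 libraries held 20574829 to 24749867 reads on the genes of the table. Differences are on the log2(CPM + 1) scale as MITF/TFEB DKO minus MITF/TFE3 DKO, so a positive value means higher in TFE3-only cells, and the added 1 understates the change of low genes. They were tested with limma over all 24 libraries and carry a standard error (SE). Where a difference is printed with its SE alone, its Benjamini-Hochberg adjusted p was under 0.05.

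The targeted genes were read first. Tfe3 had 56.3, 62.5 and 50.3 CPM in TFE3-only and 8.01, 9.75 and 8.14 CPM in TFEB-only cells. Tfeb showed the opposite order, with 3.06, 2.64 and 3.86 CPM in TFE3-only and 10.7, 13.6 and 9.55 CPM in TFEB-only cells. The libraries did not overlap for either gene (log2 fold change 2.57 ± 0.16 SE, adjusted p = 6.42e-12 for Tfe3, and log2 fold change -1.55 ± 0.18 SE, adjusted p = 2.27e-07 for Tfeb). The median difference over the 100 neighboring genes on the chromosome had the same sign, at 0.52 for Tfe3 and -0.42 for Tfeb. A small Cas9 edit need not remove an mRNA, so 3′-end reads give the level of the mRNA that remained and do not check the loss of the protein. Mitf, which both lines lack as an intact gene, had 603, 544 and 594 CPM in TFE3-only and 1101, 1208 and 1268 CPM in TFEB-only cells, with a level in the TFE3-only cells below that of every parental library (763, 768 and 797 CPM). The difference between the 2 lines was -1.04 ± 0.09 SE (adjusted p = 5.17e-09).

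The label of melanoma was checked against lineage markers. All 12 lineage markers were measured, and their summed level was 17544 to 20042 CPM in TFE3-only and 30884 to 33712 CPM in TFEB-only cells, 9 of them lower by at least 2-fold. Of markers of other cells, 2 of 12 leukocyte, 2 of 8 fibroblast, 1 of 6 endothelial and 2 of 7 epithelial genes were measured, and the other markers, Ptprc, Pdgfra, Cdh5 and Epcam among them, were not analysed here. The summed fibroblast level was 34.4 to 45.3 CPM in TFE3-only and 14.4 to 15.97 CPM in TFEB-only cells, from Col1a1 and Col1a2 alone. Krt14, an epithelial keratin, had 8.98, 6.51 and 7.72 CPM in the MITF/TFEB DKO against at most 2 reads in any MITF/TFE3 DKO library. Cdh1, E-cadherin, the other epithelial gene measured, went the other way (-0.48 ± 0.17 SE), and this call was lost without any of 4 single libraries (-0.42 and -0.45 without MITF/TFE3 DKO replicate 1 or 3, and -0.42 and -0.47 without MITF/TFEB DKO replicate 1 or 3). The leukocyte sum was 2.12 to 4.37 and 2.07 to 3.15 CPM and the endothelial sum 0.0796 to 0.627 and 1.10 to 2.03 CPM. Their part in any result was not tested. In bulk RNA, fewer cells with a transcript and less of it per cell cannot be told apart.

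In total 685 genes were at least 2-fold higher in the MITF/TFEB DKO at an unadjusted p under 0.05, which was 5.7% of the genes tested, and 486 genes, or 4.05%, were at least 2-fold lower. All 685 and 483 of the 486 also had a Benjamini-Hochberg adjusted p under 0.05 (limma), and the 3 libraries of the lines did not overlap for 684 and 482 of them. Over all genes, whatever the size of the difference, the libraries did not overlap for 3327 higher and 2974 lower genes. The called genes were selected by size and p, so their separation follows largely from that choice. Differences of at least 4-fold were found for 145 higher and 55 lower genes. By an adjusted p under 0.05 with no limit on size, 3064 genes (25.5%) were higher and 2686 genes (22.4%) were lower, and these 2 shares are the background for the counts given by adjusted p below. The median over all genes was 0.01. The counts at 2-fold move with the added constant and the test. With 5 added in place of 1, 346 genes were higher and 222 lower, and edgeR on the recovered reads called 935 and 781. The TFE3-only cells were lower in melanin genes, in amino acid supply genes of the ATF4 response and in ribosomal protein genes, and higher in matrix, contractile actin, class I antigen presentation and interferon-induced genes.

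**Figure D1:**
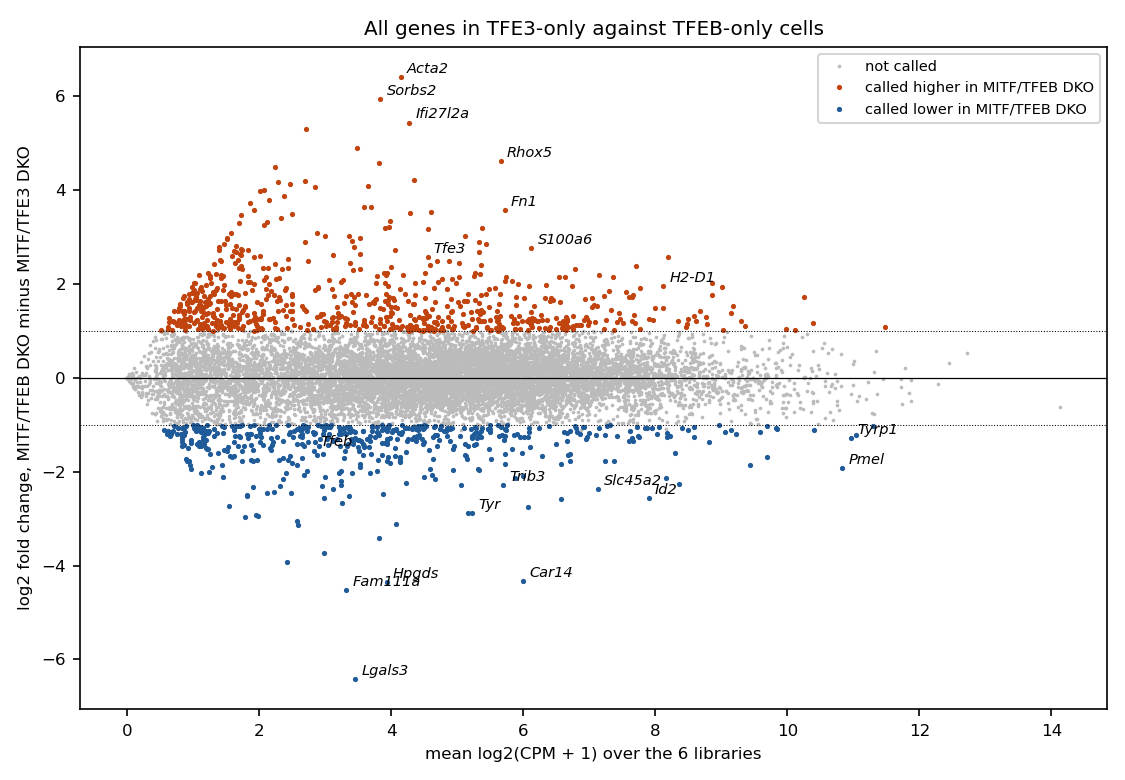
Each point is 1 of 12010 genes, with its mean log2(CPM + 1) over the 6 libraries on the horizontal axis and the log2 fold change of the MITF/TFEB DKO minus the MITF/TFE3 DKO on the vertical axis. Colored points are the 685 genes called higher and the 486 called lower at 2-fold (dotted lines), with Acta2 at 6.40 and Lgals3 at -6.42 as the extremes.

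The largest positive difference was in Acta2 (ENSMUSG00000035783, GRCm39 chr19:34217737-34232990, minus strand), the smooth muscle actin. It had 205, 159 and 129 CPM in TFE3-only and 0.706, 0.754 and 1.37 CPM in TFEB-only cells (log2 fold change 6.40 ± 0.17 SE, adjusted p = 3.86e-18). In the parental, TFE3 KO and TFEB KO libraries Acta2 was at 0, and the TFEB/TFE3 DKO reached at most 0.145 CPM. The MITF KO stood at 2.50, 2.41 and 1.42 CPM and the TKO at 92.1, 93.96 and 70.6 CPM. Levels above 50 CPM were therefore found only in TFE3-only cells and the TKO among the 8 lines. Sorbs2, an adaptor of actin stress fibers, had 107, 106 and 119 CPM in TFE3-only and 0.913, 0.801 and 0.777 CPM in TFEB-only cells (5.93 ± 0.16 SE) and 99.6, 102 and 103 CPM in the TKO. Ifi27l2a, an interferon-induced gene, followed another order of lines. It had 125, 137 and 118 CPM in TFE3-only and 2.28, 2.12 and 1.51 CPM in TFEB-only cells (5.43 ± 0.19 SE) but only 0.255, 0.380 and 0.516 CPM in the TKO. Rhox5, a homeobox gene of the X chromosome cluster active in germ line tissues, had 252, 249.9 and 243 CPM in TFE3-only and 10.1, 8.998 and 8.59 CPM in TFEB-only cells (4.61 ± 0.18 SE), with 46.6, 44.1 and 46.4 CPM in the TKO.

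The other named positive differences ran from 4.13 to 4.90 where both lines had reads enough for a ratio. Gal3st2, a sulfotransferase, had a mean of 60.4 ± 4.81 CPM (SD, n = 3) in TFE3-only and 1.09 ± 0.481 CPM in TFEB-only cells, and 54.2% of the 50-base stretches at its transcript ends also stood in its copies Gal3st2b and Gal3st2c, so its reads may be split between them. Cfap100, a cilium gene, had 76.9, 64.9 and 61.6 CPM in TFE3-only and 1.74, 2.40 and 1.60 CPM in TFEB-only cells (4.56 ± 0.19 SE). Zfp536, a zinc finger repressor known from neurons, had 77.6, 92.5 and 90.2 CPM in TFE3-only and 2.99, 3.82 and 4.62 CPM in TFEB-only cells (4.20 ± 0.21 SE). Casp12, a caspase of the endoplasmic reticulum, differed by 4.19 ± 0.20 SE, Gucy1a1, a subunit of the nitric oxide receptor guanylate cyclase, by 4.13 ± 0.15 SE, and Tslrn1 by 4.17 ± 0.12 SE. Adamtsl1, a secreted matrix protein, had 44.5, 37.7 and 37.7 CPM in the MITF/TFEB DKO and at most 2 reads in any MITF/TFE3 DKO library. Capn6, a calpain without protease activity, had 19.1, 19.4 and 26.8 CPM against 0 in all 3. No fold is given for the latter pair. For 37 of the 685 higher genes, as for these, every MITF/TFE3 DKO library held at most 3 reads.

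The largest negative difference was in Lgals3 (ENSMUSG00000050335, GRCm39 chr14:47605208-47623624, plus strand), which encodes galectin-3. It had 0.0784, 0.252 and 0.239 CPM in TFE3-only and 99.8, 109 and 92.4 CPM in TFEB-only cells (log2 fold change -6.42 ± 0.11 SE, adjusted p = 3.19e-22). The MITF/TFEB DKO libraries held at most 6 reads of it, while the parental cells had 466, 475 and 462 CPM and the TKO 0, 0 and 0.0430 CPM. Car14, a membrane carbonic anhydrase, had 17.1, 11.6 and 11.9 CPM in TFE3-only and 287, 283 and 289 CPM in TFEB-only cells (-4.33 ± 0.12 SE), and 2.84, 2.996 and 3.66 CPM in the TKO. Hpgds, the hematopoietic prostaglandin D synthase, had 2.12, 2.31 and 2.71 CPM in TFE3-only and 67.02, 67.1 and 69.8 CPM in TFEB-only cells (-4.35 ± 0.12 SE). Fam111a, a protease that restricts viral replication, had 0.627, 1.55 and 1.15 CPM in TFE3-only and 46.7, 43.8 and 50.1 CPM in TFEB-only cells (-4.52 ± 0.13 SE). These 4 genes were picked among genes whose libraries do not overlap, so their separation follows from that choice. Mgll, the lipase that breaks down monoacylglycerols, differed by -3.42 ± 0.17 SE, Slit2, an axon guidance ligand, by -3.11 ± 0.18 SE, and F11r, the tight junction protein JAM-A, by -3.13 ± 0.19 SE. Prss12, a serine protease of neurons, differed by -3.72 ± 0.14 SE, Ssbp4, a single-stranded DNA binding protein, by -3.05 ± 0.21 SE, Ly6g5c by -3.93 ± 0.16 SE, Cdyl2, a chromodomain protein, by -2.96 ± 0.18 SE and Myl9, a myosin light chain, by -2.94 ± 0.21 SE. The 3′ ends of Acta2, Ifi27l2a, Cfap100, Car14 and Pmel lie under a gene of the other strand (Stambpl1, Ifi27, Zxdc, Aph1a and Dgka). So do those of Rhox5, Fam111a and Myl9 and, among genes named below, of Ctso, Il34, Tmem175, Map1lc3b and others. Whether the counting used strand is not given in the sources used here, so reads of these pairs cannot be told apart.

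**Figure D2:**
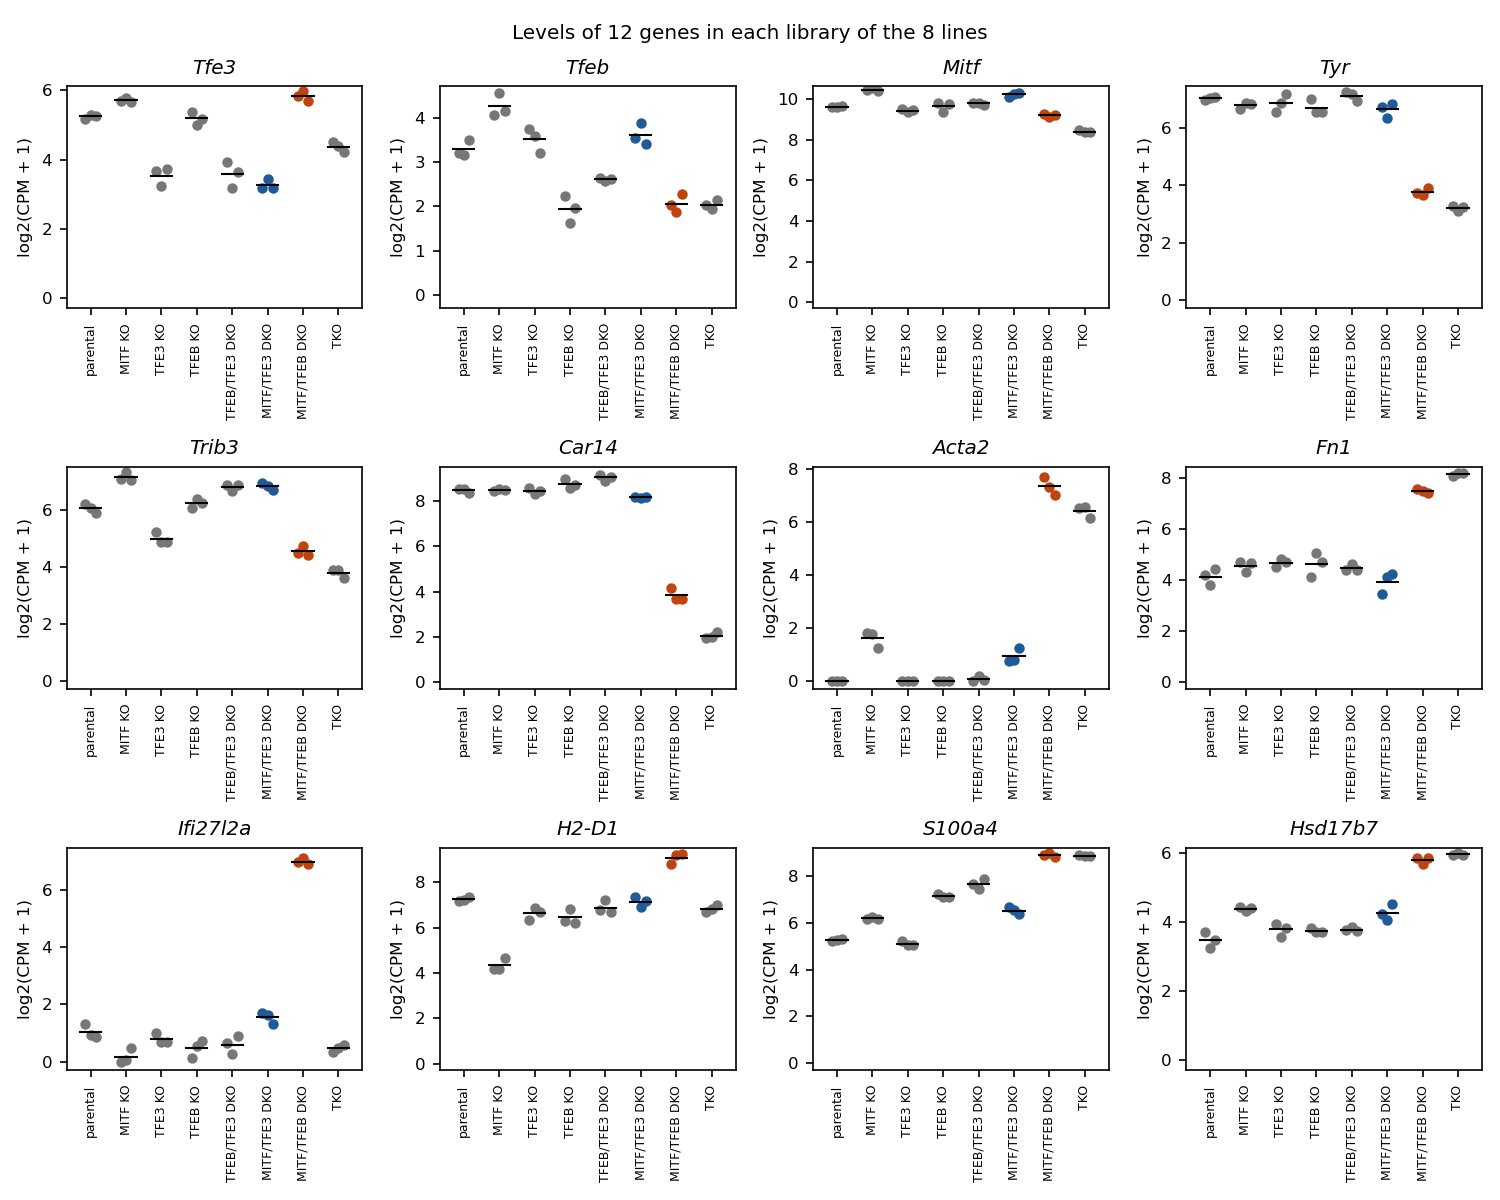
Points are single libraries on the log2(CPM + 1) scale, bars are the means of 3 libraries, and the MITF/TFE3 DKO is in blue and the MITF/TFEB DKO in orange. Tyr, Trib3, Car14, Acta2, Fn1, S100a4 and Hsd17b7 in the TKO lay closer to the MITF/TFEB DKO than to the MITF/TFE3 DKO, whereas Ifi27l2a and H2-D1 were high in the MITF/TFEB DKO and not in the TKO.

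The libraries of the TKO, which entered neither side of the comparison, were set against both lines. Of the 685 higher genes, 568 (82.9%) had a TKO mean closer to the MITF/TFEB DKO than to the MITF/TFE3 DKO, and of the 486 lower genes 467 (96.1%) did. Over all genes the share was 73.6%. The MITF KO was closer to the MITF/TFEB DKO in 18.4% of the higher and 29.2% of the lower genes, against 42.6% of all genes. These shares are a description and carry no test, and a common clone of origin for the TKO and either line cannot be told apart from the genotype.

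Pigment genes were lower in the TFE3-only cells. Of 35 measured genes, 0 were higher and 12 lower by at least 2-fold, and 4 were higher and 16 lower by adjusted p, with a median of -0.33. The melanin enzymes were all lower. Tyrosinase (Tyr, GRCm39 chr7:87073979-87142720, minus strand), the rate-limiting enzyme of melanin synthesis, had 12.5, 11.8 and 14.1 CPM in TFE3-only and 107, 81.6 and 115 CPM in TFEB-only cells (log2 fold change -2.88 ± 0.15 SE, adjusted p = 2.14e-13). Tyrp1 had 1134, 1359 and 1357 CPM in TFE3-only and 2995, 3196 and 3217 CPM in TFEB-only cells (-1.29 ± 0.10 SE), and Dct, the dopachrome tautomerase and the gene with the highest CPM in all 6 libraries, differed by -0.62 ± 0.11 SE. Among melanosome matrix, channel and transporter genes 9 of 11 were lower by adjusted p. Pmel, which forms the melanosome fibrils, had 813, 970.1 and 1038 CPM in TFE3-only and 3502, 3546 and 3648 CPM in TFEB-only cells (-1.93 ± 0.11 SE), and the transporter Slc45a2 had 54.6, 62.8 and 64.8 CPM in TFE3-only and 301, 340.0 and 313 CPM in TFEB-only cells (-2.37 ± 0.09 SE). Oca2, a melanosomal chloride channel, differed by -2.03 ± 0.19 SE, Slc24a4 by -2.73 ± 0.21 SE, Trpm1 by -1.31 ± 0.20 SE, Mlana by -1.26 ± 0.11 SE and Gpr143 by -1.06 ± 0.15 SE. The receptor for melanocortin, Mc1r, had 83.6, 91.1 and 92.2 CPM in TFE3-only and 294, 328 and 303 CPM in TFEB-only cells (-1.78 ± 0.09 SE), beside a median of -0.80 over its 100 neighbors on chromosome 8. Mlana and Slc24a4 also lie in lowered stretches, with neighbor medians of -0.53 and -0.40. Tyr and Oca2 lie on chromosome 7, where the neighbor medians were 0.45 and 0.44, of the opposite sign to their own differences. In contrast, the 20 genes of melanosome biogenesis and transport had a median of -0.09, with 3 higher and 3 lower by adjusted p. Rab38 of this group had 193, 332 and 419 CPM in TFE3-only and 712, 286 and 478 CPM in TFEB-only cells, and the lines overlapped (log2 fold change -0.62 ± 0.38 SE, adjusted p = 0.185).

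Melanin genes are known for an E-box variant, the M-box, with the letters TCATGTG. It is shown here because it stood in the promoter windows of several of them. In the RefSeq windows of GRCm38.p6, which run from 250 bases before to 50 bases after each transcription start, TCATGTG on either strand was found for 5 of the 6 melanocyte lineage markers with a window and for 2.64% of all 9647 genes with a window. The other lineage markers had no window. Of all pigment genes with a window, 7 of 29 (24.1%) held it. Among other lists its share was 13.8% for mTORC1 nutrient sensing, 12.8% for lysosomal hydrolases and 0% for autophagy. The motif with up to 26 bases on each side is printed 5′ to 3′ along the gene, with the motif, as TCATGTG or its reverse complement CACATGA, in capitals.
Tyr: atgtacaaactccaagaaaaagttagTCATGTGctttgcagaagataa
Tyrp1: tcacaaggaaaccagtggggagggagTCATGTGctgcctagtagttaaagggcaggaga
Dct: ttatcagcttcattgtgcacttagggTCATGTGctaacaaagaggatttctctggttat
Mc1r: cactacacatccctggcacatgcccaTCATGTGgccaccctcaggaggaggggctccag
Trpm1: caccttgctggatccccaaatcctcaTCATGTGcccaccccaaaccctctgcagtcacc
Ppargc1a: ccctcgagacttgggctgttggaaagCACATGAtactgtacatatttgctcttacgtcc
Hpgds: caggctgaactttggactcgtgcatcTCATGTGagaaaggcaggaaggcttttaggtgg
In order, these stretches lie on GRCm38.p6 at chr7:87493513-87493560, minus strand, motif 22 bases before the start (Tyr), chr4:80834140-80834198, plus strand, motif 47 bases before the start (Tyrp1), chr14:118052365-118052423, minus strand, motif 151 bases before the start (Dct), chr8:123407004-123407062, plus strand, motif 52 bases before the start (Mc1r), chr7:64153667-64153725, plus strand, motif 142 bases before the start (Trpm1), chr5:51567853-51567911, minus strand, motif 160 bases before the start (Ppargc1a) and chr6:65144779-65144837, minus strand, motif 81 bases before the start (Hpgds). These 7 were picked, after their values were seen, as genes lower in the MITF/TFEB DKO. Among the other named genes the motif also stood in the windows of Slc7a11 (-1.98 ± 0.21 SE), which was lower, and of Sorbs2 (5.93 ± 0.16 SE) and Egln3 (1.78 ± 0.24 SE), which were higher.

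TCATGTG stood in the windows of 5.75% of the 400 lower genes with a window and 3.47% of the 519 higher ones. The palindromic TCACGTGA stood in 1.75% of the lower, 0.963% of the higher and 2.30% of all genes with a window. Its core CACGTG, which every TCACGTGA also holds, stood in 10%, 8.67% and 11.97%. Matches describe letters and not binding.

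Ppargc1a encodes PGC-1α, the coactivator of mitochondrial biogenesis, and is a known MITF target. It had 65.7, 50.5 and 50.7 CPM in TFE3-only and 169, 189.9 and 220.4 CPM in TFEB-only cells (log2 fold change -1.78 ± 0.12 SE, adjusted p = 5.15e-11), while the MITF KO stood at 344, 343 and 309 CPM and the TKO at 46.1, 46.4 and 48.2 CPM. Respiratory chain and ATP synthase genes lay lower too. Of 77 measured, 3 were lower by at least 2-fold and none higher, and 40 were lower and 1 higher by adjusted p, with a median of -0.37. Uqcr10 of complex III had 404, 425 and 352 CPM in TFE3-only and 979.7, 985 and 767 CPM in TFEB-only cells (-1.20 ± 0.12 SE), Cox8a of complex IV had 323, 380.3 and 368 CPM in TFE3-only and 869, 769 and 756 CPM in TFEB-only cells (-1.16 ± 0.10 SE), and Ndufb6 of complex I differed by -1.06 ± 0.18 SE. Cox4i1 of complex IV differed by -0.99 ± 0.10 SE in a stretch with a neighbor median of -0.70. By line, medians against the parental cells were 0.22 for the MITF KO, 0.25 for TFEB-only cells, -0.09 for TFE3-only cells and -0.07 for the TKO. Thus the TFEB-only cells lay above and the TFE3-only cells slightly below the parental level. The PGC-1 and mitochondrial regulators as a list had a median of -0.02, with 4 higher and 3 lower of 15 by adjusted p. Esrra, the receptor partner of PGC-1, differed by -0.72 ± 0.22 SE, and this call was lost without MITF/TFE3 DKO replicate 1 (-0.58) or MITF/TFEB DKO replicate 1 (-0.61).

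The ATF4 response, which supplies amino acids and tRNA charging under stress, had the lowest median of the gene lists other than cell type markers, -0.63. Of its 58 genes 43 were measured. None was higher by at least 2-fold or by adjusted p, with a largest value of 0.13, while 15 were lower by at least 2-fold and 32 by adjusted p. Trib3, a pseudokinase induced by ATF4, had 21.7, 25.5 and 20.6 CPM in TFE3-only and 123, 115 and 104 CPM in TFEB-only cells (log2 fold change -2.29 ± 0.12 SE, adjusted p = 5.96e-13). Chac1, which degrades glutathione, had 21.2, 20.2 and 16.8 CPM in TFE3-only and 87.2, 76.9 and 70.8 CPM in TFEB-only cells (-1.96 ± 0.10 SE). Slc7a11, the cystine importer, had 1.69, 2.52 and 2.95 CPM in TFE3-only and 12.1, 10.2 and 14.6 CPM in TFEB-only cells (-1.98 ± 0.21 SE), and Aldh18a1, which makes the proline precursor, had 4.20, 5.63 and 10.6 CPM in TFE3-only and 26.7, 15.9 and 24.1 CPM in TFEB-only cells (-1.63 ± 0.40 SE). The TFE3-only libraries lay below every TFEB-only library for all 4, as they did for 2974 genes of the whole table. These 4 were picked by size of change among members with an adjusted p under 0.05, so their separation follows largely from that choice. The medians were -1.03 for stress response factors, -0.96 for amino acid synthesis, -0.46 for transporters and -0.47 for tRNA synthetases. By line, medians against the parental cells were 0.25 for the MITF KO, 0.15 for TFEB-only cells, -0.59 for TFE3-only cells and -0.52 for the TKO.

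Cytosolic ribosomal proteins were also lower in the TFE3-only than in the TFEB-only cells. Of 80 measured, 12 were lower by at least 2-fold and 56 by adjusted p, with none higher by either measure and a median of -0.54. Medians against the parental cells were -0.52 for TFE3-only and -0.002 for TFEB-only cells. They were also low in the MITF KO (-0.48), the TKO (-0.45) and the TFEB/TFE3 DKO (-0.34), so the low level was not particular to TFE3-only cells. Rpl22l1, a paralog of Rpl22, had 22.4, 40.4 and 29.5 CPM in TFE3-only and 136, 126 and 128 CPM in TFEB-only cells (-2.08 ± 0.17 SE), Rpl5 differed by -1.26 ± 0.18 SE, Rps6 by -1.24 ± 0.19 SE and Rpl13 by -1.27 ± 0.09 SE, the last beside a neighbor median of -0.80. These genes have many processed copies that share their sequence (19.9% to 35.97% of the 50-base stretches at the ends of these 4), so their counts are uncertain. Ribosome biogenesis and MYC network genes had 9 higher and 26 lower of 70 by adjusted p and a median of -0.13. Rrp1b and Rrp12, factors of rRNA processing, differed by -1.15 ± 0.12 SE and -1.03 ± 0.11 SE, and Nop10 of the pseudouridylation complex by -0.97 ± 0.10 SE. Both the ribosomal and the respiratory lists hold short transcripts, and length moved with the comparison. Among genes averaging 5 CPM or more, excluding both lists, the median was -0.07 in the fifth with the shortest annotated transcripts (up to 2844 bases) and 0.15 in the fifth with the longest. The part of length in either list was not tested.

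Matrix genes were higher in the TFE3-only cells. Of 57 genes of the extracellular matrix and adhesion, 22 were higher and 1 lower by at least 2-fold, and 37 were higher and 7 lower by adjusted p, with a median of 0.80. Fn1, fibronectin, had 190.0, 182 and 170.2 CPM in TFE3-only and 9.92, 16.2 and 17.9 CPM in TFEB-only cells (log2 fold change 3.57 ± 0.20 SE, adjusted p = 1.18e-12). Thbs1, thrombospondin-1, had 17.4, 13.4 and 15.7 CPM in TFE3-only and 0.125, 0 and 0.503 CPM in TFEB-only cells (3.79 ± 0.25 SE), and the collagens Col8a1 and Col6a3 differed by 3.02 ± 0.25 SE and 2.51 ± 0.18 SE. Collagens and laminins had the highest median of the groups of this list, 1.18, with 11 of 19 higher by at least 2-fold, against 0.65 for matrix glycoproteins and enzymes and 0.53 for integrins and cadherins. By line, medians against the parental cells were 0.34 for the MITF KO, 0.07 for TFEB-only cells, 0.89 for TFE3-only cells and 0.90 for the TKO.

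Of 26 contractile actin genes, 11 were higher and 2 lower by at least 2-fold, and 18 were higher and 3 lower by adjusted p, with a median of 0.66. Beside Acta2, Ccn2, a target of the YAP coactivator, had 4.78, 9.95 and 14.1 CPM in TFE3-only and 1.87, 0.236 and 2.47 CPM in TFEB-only cells (2.09 ± 0.45 SE). This group did not move as a unit. Myl9 had 0.627, 0.462 and 0.239 CPM in TFE3-only and 10.7, 11.2 and 8.27 CPM in TFEB-only cells, and Actg2, the enteric smooth muscle actin, had 0.902, 1.85 and 0.518 CPM in TFE3-only and 9.88, 10.9 and 8.91 CPM in TFEB-only cells (-2.43 ± 0.19 SE), so these 2 smooth muscle genes were lower where Acta2 was higher.

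Of 33 TGF-β and BMP genes, 2 were higher and 2 lower by at least 2-fold, and 13 were higher and 5 lower by adjusted p. The ligand Tgfb2 had 101, 92.9 and 84.9 CPM in TFE3-only and 15.4, 17.8 and 17.5 CPM in TFEB-only cells (log2 fold change 2.39 ± 0.12 SE, adjusted p = 3.83e-13). The BMP target Id2, an inhibitor of helix-loop-helix factors, had 98.4, 103 and 91.2 CPM in TFE3-only and 587, 603 and 547 CPM in TFEB-only cells (-2.56 ± 0.12 SE), and the ligand Gdf15 differed by -1.54 ± 0.22 SE. Ligands therefore stood in both directions. Of the S100 proteins, calcium-binding proteins, 4 of 8 were higher and 0 lower by at least 2-fold, and 6 were higher and 2 lower by adjusted p. The 2 lower ones, S100a1 (-0.67 ± 0.17 SE) and S100a16 (-0.26 ± 0.10 SE), are named after their values were seen. S100a6 had 177, 196 and 169 CPM in TFE3-only and 28.5, 26.4 and 22.8 CPM in TFEB-only cells (2.76 ± 0.09 SE), S100a4 had 477, 509.6 and 441 CPM in TFE3-only and 100.4, 91.2 and 81.96 CPM in TFEB-only cells (2.37 ± 0.09 SE) and S100a11 differed by 2.56 ± 0.12 SE.

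**Figure D3:**
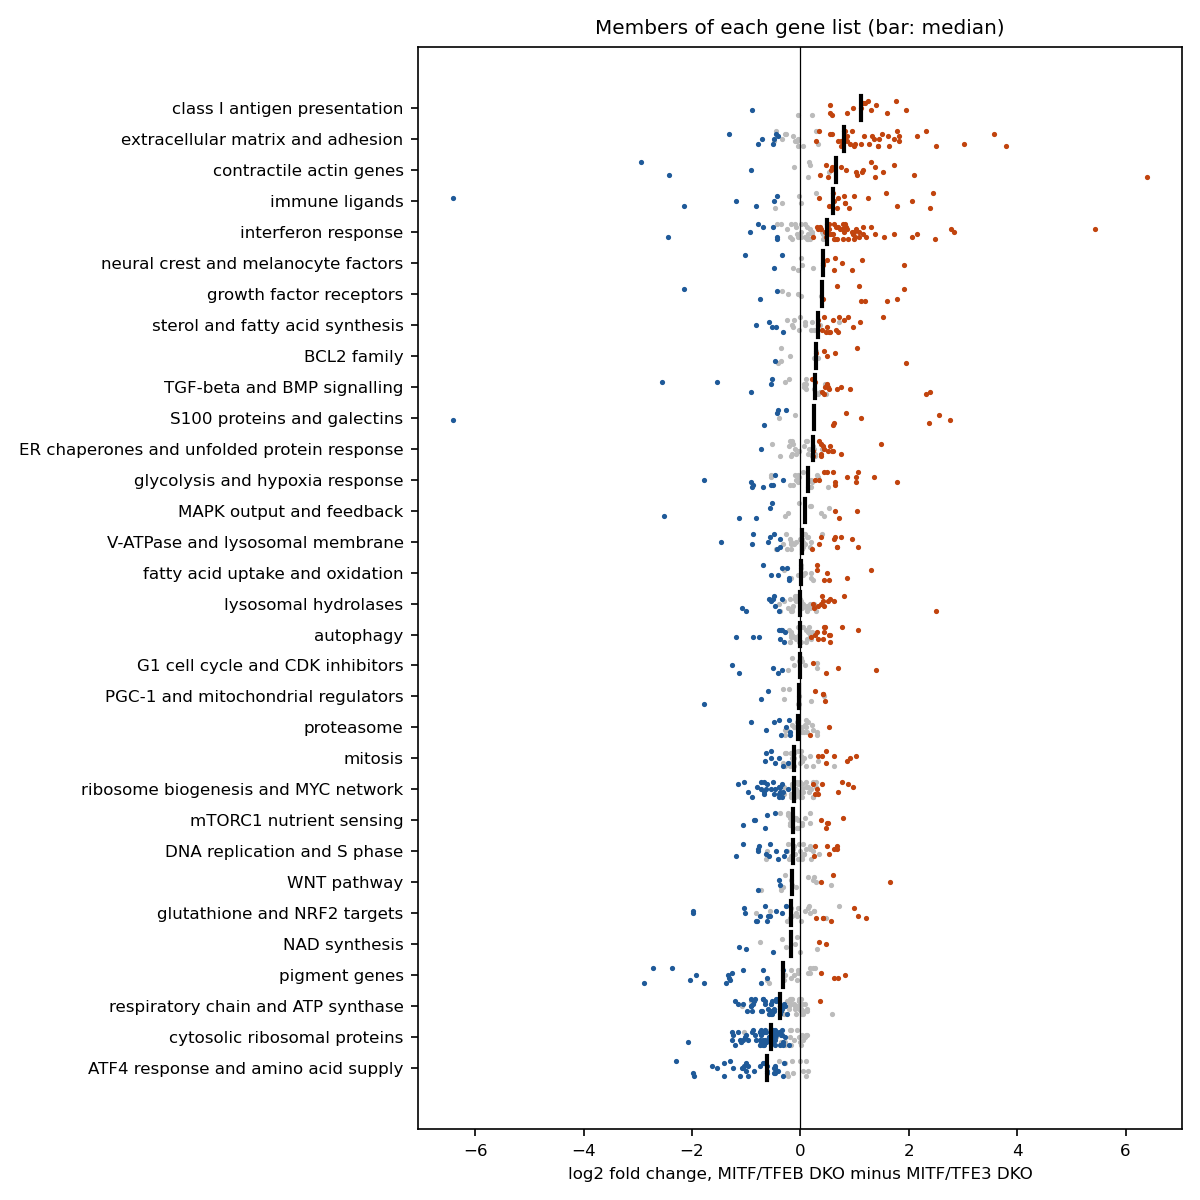
Each point is a member of a gene list (cell type markers left out) at its log2 fold change (MITF/TFEB DKO minus MITF/TFE3 DKO), colored where its adjusted p was under 0.05, and the black bars are list medians. The medians run from -0.63 for the ATF4 response to 1.11 for class I antigen presentation, and the lysosomal and autophagy lists are centered near 0.

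Interferon-induced genes were higher in the TFE3-only cells. Of 87 measured, 17 were higher and 1 lower by at least 2-fold, and 53 were higher and 7 lower by adjusted p, with a median of 0.50. Beside Ifi27l2a, Zbp1, a sensor of Z-form nucleic acid, had 25.7, 28.3 and 28.8 CPM in TFE3-only and 3.61, 3.63 and 2.33 CPM in TFEB-only cells (log2 fold change 2.79 ± 0.16 SE, adjusted p = 2.91e-12), and Ifi204, a DNA sensor, had 66.3, 55.5 and 58.6 CPM in TFE3-only and 10.3, 9.47 and 9.96 CPM in TFEB-only cells (2.48 ± 0.12 SE). Phf11d had 127, 105 and 113 CPM in TFE3-only and 14.2, 15.1 and 16.3 CPM in TFEB-only cells (2.84 ± 0.20 SE), and 21.8% of its end stretches are shared with related genes. No TFEB-only library reached the level of a TFE3-only library for these 4, as was so for 3327 genes of the whole table. They too were picked by size of change among members with an adjusted p under 0.05, so their separation follows largely from that choice. By line, medians against the parental cells were -3.45 for the MITF KO, -0.13 for TFEB-only cells, 0.35 for TFE3-only cells and -2.41 for the TKO. Both DKOs thus lay near the parental level, and the MITF KO and the TKO below it. Of the 53 higher members, the TKO mean was closer to the MITF/TFEB DKO for 5, against 83.03% of all genes higher by adjusted p. Zbp1 had 0.146, 0.190 and 0.344 CPM in the TKO and Ifi204 had 0, 0 and 0.258 CPM. Of the lower members 7 of 7 were closer to the MITF/TFEB DKO, against 87.04% of all genes lower by adjusted p.

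Class I antigen presentation had the highest median of the gene lists other than cell type markers, 1.11. Of its 17 genes, 9 were higher and 0 lower by at least 2-fold, and 14 were higher and 1 lower by adjusted p. H2-D1, a class I heavy chain, had 443, 599 and 614 CPM in TFE3-only and 162, 120.4 and 145 CPM in TFEB-only cells (log2 fold change 1.94 ± 0.18 SE, adjusted p = 5.49e-09), and 103, 113 and 126 CPM in the TKO. Tapbp, tapasin, which loads peptides, had 476, 347 and 311 CPM in TFE3-only and 92.1, 137 and 101 CPM in TFEB-only cells (1.77 ± 0.19 SE). Erap1, the peptide trimmer, differed by 1.59 ± 0.17 SE, and the peptide transporter Tap1 by 1.39 ± 0.17 SE. Of the 14 higher members 2 were closer to the MITF/TFEB DKO in the TKO, against 83.03% of all genes higher by adjusted p. H2-D1 shares 18.2% of its end stretches with other genes, so its reads may be split. Of 28 immune ligands, 6 were higher and 3 lower by at least 2-fold, and 17 were higher and 6 lower by adjusted p. Il34, a ligand of the macrophage receptor CSF1R, had 8.51, 6.003 and 4.78 CPM in TFE3-only and 0.249, 0.330 and 0.411 CPM in TFEB-only cells (2.45 ± 0.18 SE), and the checkpoint ligand Cd276 had 1.14, 1.97 and 1.27 CPM in TFE3-only and 9.47, 9.42 and 10.7 CPM in TFEB-only cells (-2.15 ± 0.14 SE).

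**Figure D4:**
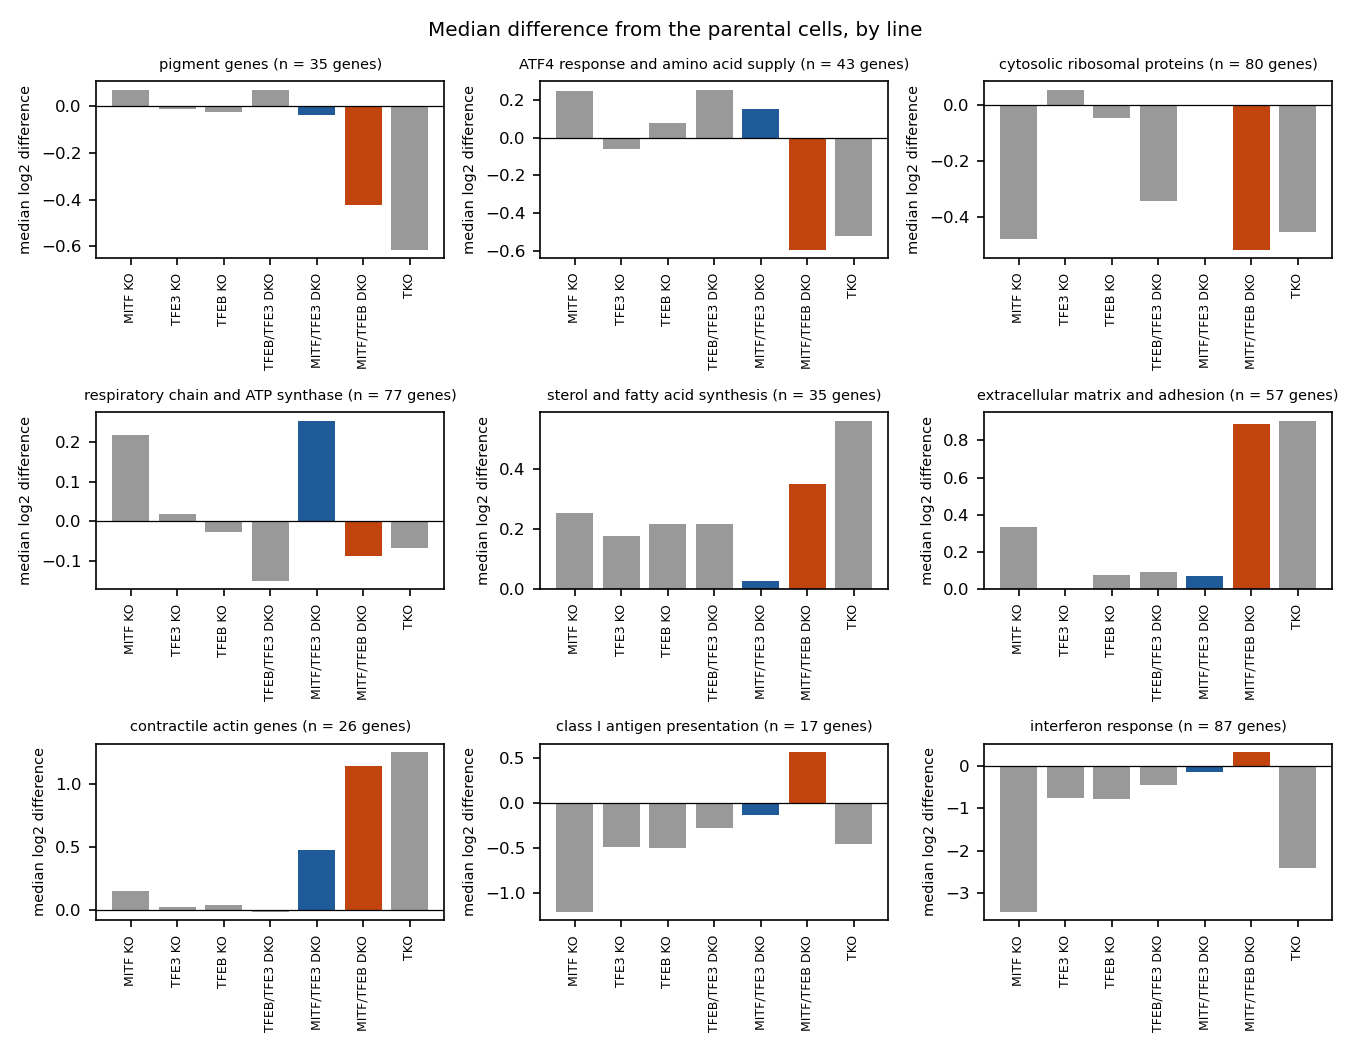
Bars are the median difference of each list's members from the parental mean on the log2(CPM + 1) scale, for 7 KO lines, with the MITF/TFE3 DKO in blue and the MITF/TFEB DKO in orange. In the pigment, ATF4, matrix and contractile lists the TKO bar lies closer to the MITF/TFEB DKO bar than to the MITF/TFE3 DKO bar. In the interferon list it is at -2.41 while the MITF/TFEB DKO is at 0.35, and in the class I list at -0.46 while the MITF/TFEB DKO is at 0.57.

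Sterol and fatty acid synthesis genes had a median of 0.33, with 17 higher and 5 lower of 35 by adjusted p. The 22 genes of sterol synthesis or uptake had 16 higher and 2 lower by adjusted p and a median of 0.50. Hsd17b7, an enzyme of late cholesterol synthesis, had 56.6, 50.1 and 57.1 CPM in TFE3-only and 17.8, 15.7 and 22.2 CPM in TFEB-only cells (1.52 ± 0.13 SE). Dhcr7, the last enzyme of the pathway, differed by 0.97 ± 0.14 SE, and the sterol carrier Stard4 by 0.88 ± 0.10 SE. Scd1, a fatty acid desaturase, had 4.71, 6.42 and 5.57 CPM in TFE3-only and 7.68, 6.69 and 5.99 CPM in TFEB-only cells, and the lines overlapped (log2 fold change -0.25 ± 0.13 SE, adjusted p = 0.13). ER chaperones had 14 higher and 1 lower of 39 by adjusted p, led by the disulfide isomerase Pdia4 at 1.49 ± 0.24 SE and the chaperone Hsp90b1 at 0.75 ± 0.12 SE, while Herpud1, of ER-associated degradation, differed by -0.73 ± 0.08 SE.

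The lysosome and autophagy genes, the best known targets of TFEB and TFE3, showed little net difference. Lysosomal hydrolases had 12 higher and 9 lower of 50 by adjusted p with a median of 0.00, V-ATPase and lysosomal membrane genes 10 higher and 9 lower of 42 with a median of 0.03, and autophagy genes 13 higher and 9 lower of 50 with a median of -0.01. Against the backgrounds of 25.5% and 22.4%, the shares of these 3 lists lay near or below that of all genes in both directions. Single members did differ. Ctso, a cathepsin, had 3.02, 5.58 and 8.80 CPM in TFE3-only and 0.0415, 0.0942 and 0.274 CPM in TFEB-only cells (2.49 ± 0.26 SE). Hexa, a subunit of hexosaminidase, had 139, 171 and 165 CPM in TFE3-only and 340.1, 336 and 321 CPM in TFEB-only cells (-1.07 ± 0.09 SE), and Atp6v0a2 of the V-ATPase had 159, 153 and 149 CPM in TFE3-only and 60.9, 78.3 and 80.5 CPM in TFEB-only cells (1.07 ± 0.09 SE). Tmem175, a lysosomal potassium channel, differed by -1.46 ± 0.14 SE, Lamp2 by 0.95 ± 0.07 SE, Tecpr1, an autophagosome tethering factor, by -1.19 ± 0.08 SE and Map1lc3b, which encodes LC3B, by -0.77 ± 0.10 SE in a stretch with a neighbor median of -0.74, without which it was -0.024.

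Nutrient sensing by mTORC1 gave 5 higher and 6 lower of 33 by adjusted p and a median of -0.13. Deptor, an inhibitor of mTOR, had 201, 182 and 169.6 CPM in TFE3-only and 325, 454 and 381 CPM in TFEB-only cells (-1.06 ± 0.12 SE). The Rag GTPase genes Rraga and Rragd differed by -0.86 ± 0.16 SE and -0.61 ± 0.16 SE. Rragc (-0.11 ± 0.16 SE) and Fnip2 (0.18 ± 0.15 SE), of the folliculin complex, did not pass the test, with adjusted p = 0.599 and 0.361 (limma). Glycolysis and hypoxia genes stood in both directions, with 13 higher and 9 lower of 40 by adjusted p. Egln3, an oxygen sensor, differed by 1.78 ± 0.24 SE and Car9, a hypoxia-induced carbonic anhydrase, by -1.77 ± 0.32 SE, while the hexokinase gene Hk2 differed by -0.32 ± 0.12 SE. The call of Hk2 was lost without MITF/TFE3 DKO replicate 2 (-0.23) or 3 (-0.32) and without MITF/TFEB DKO replicate 2 (-0.32) or 3 (-0.32).

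Of 16 growth factor receptors, 6 were higher and 1 lower by at least 2-fold, and 8 were higher and 3 lower by adjusted p. Axl, a receptor of dedifferentiated melanoma cells, had 78.2, 67.2 and 61.2 CPM in TFE3-only and 21.2, 23.4 and 21.6 CPM in TFEB-only cells (1.59 ± 0.12 SE), beside a neighbor median of 0.53. Igf1r had 95.8, 89.8 and 89.02 CPM in TFE3-only and 22.96, 25.5 and 30.2 CPM in TFEB-only cells (1.77 ± 0.14 SE, neighbor median 0.44) and Erbb3, a neural crest receptor, had 41.95, 50.1 and 52.04 CPM in TFE3-only and 13.5, 8.998 and 13.9 CPM in TFEB-only cells (1.92 ± 0.20 SE). Epha3, an ephrin receptor, had 28.00, 25.8 and 26.99 CPM in TFE3-only and 106, 123 and 139 CPM in TFEB-only cells (-2.14 ± 0.13 SE). For Met and Ngfr the adjusted p was 0.179 and 0.602 (limma), and Kit had at most 2 reads in any of the 6 libraries. MAPK output and feedback genes gave 3 higher and 5 lower of 16 by adjusted p, with the phosphatase Dusp4 at 3.33, 3.48 and 3.11 CPM in TFE3-only and 23.4, 24.3 and 23.5 CPM in TFEB-only cells (-2.52 ± 0.12 SE). WNT pathway genes gave 3 higher and 3 lower of 19. The receptor Fzd2 differed by 1.66 ± 0.17 SE and the feedback gene Axin2 by -0.78 ± 0.16 SE. Neural crest and melanocyte factors gave 9 higher and 3 lower of 17, with Tead1 at 1.15 ± 0.13 SE and Nfatc2 at -1.01 ± 0.12 SE.

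In the BCL2 family Bcl2 itself had 138, 133 and 129.7 CPM in TFE3-only and 34.7, 33.03 and 33.1 CPM in TFEB-only cells (1.96 ± 0.08 SE), and the list gave 6 higher and 1 lower of 14 by adjusted p. Cell cycle lists had medians near 0, with -0.13 for DNA replication (7 higher and 12 lower of 46), -0.11 for mitosis (8 higher and 8 lower of 43) and -0.01 for G1 genes (4 higher and 5 lower of 18). The replication licensing factor Cdt1 had 63.1, 68.5 and 66.8 CPM in TFE3-only and 154, 149.9 and 150.3 CPM in TFEB-only cells (-1.18 ± 0.07 SE, neighbor median -0.80), Cdk2 differed by -1.27 ± 0.19 SE and cyclin D1, Ccnd1, by -1.13 ± 0.10 SE. In the other direction Mki67, the Ki-67 gene, differed by 1.03 ± 0.15 SE, with a neighbor median of 0.49, and the CDK inhibitor Cdkn1c by 1.40 ± 0.21 SE. Proteasome genes gave 2 higher and 9 lower of 32, glutathione and NRF2 target genes 7 higher and 14 lower of 40, fatty acid uptake and oxidation genes 7 higher and 7 lower of 25 and NAD synthesis genes 2 higher and 3 lower of 12, all by adjusted p. Osgin1, an NRF2 target, differed by -1.99 ± 0.22 SE, with a neighbor median of -0.67, the antioxidant enzyme Prdx6 by 1.22 ± 0.09 SE and Nampt, the rate-limiting enzyme of NAD salvage, by -0.50 ± 0.10 SE, or -0.17 (not passing) after its neighbor median was taken away.

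Stretches of neighboring genes differed together between the 2 clones. Positions on GRCm39 were found for 11740 genes. On chromosome 7 the median over 683 genes averaging 5 CPM or more was 0.48, on chromosome 1 0.28, on X 0.28, on chromosome 12 -0.32 and on chromosome 19 -0.41. All others lay between -0.16 and 0.19. On chromosome 7 medians against the parental cells were -0.32 for TFEB-only and 0.12 for TFE3-only cells, and on chromosome 19 they were respectively -0.09 and -0.55, with 0.12 and -0.58 for the TKO. Of 9383 genes, 1083 lay where the median of 100 neighbors was at least 0.3 and 889 where it was -0.3 or less. These 21.02% of genes held 32.6% of the 739 called genes of that level, 132 higher and 13 lower in raised stretches and 6 higher and 90 lower in lowered ones. The other 271 higher and 227 lower genes lay outside. Without the members inside shifted stretches the list medians were -0.70 for the ATF4 response (27 genes), -0.61 for ribosomal proteins (56), -0.37 for the respiratory chain (60), -0.17 for pigment genes (21), 0.78 for matrix (46), 0.53 for interferon (65) and 1.11 for class I genes, none of which lay in such a stretch. Mc1r, Rpl13, Cdt1, Osgin1, Cox4i1 and Map1lc3b, all lower, lie together near the end of chromosome 8, with neighbor medians of -0.80 to -0.67. Axl, Igf1r and Mki67, all higher, lie on chromosome 7, and Acta2, far higher, lies on chromosome 19 in a lowered stretch (-0.56). The part of these stretches in single genes was not tested.

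The same contrast was available in lines that keep MITF, as the TFEB KO minus the TFE3 KO, which shares no library with the pair. There 111 genes (0.924%) were higher and 53 (0.441%) lower at the same threshold. Across the 9539 genes averaging 5 CPM or more, the 2 contrasts had a Pearson r of 0.14 and a Spearman rho of 0.16, where genes are not independent replicates. The 685 higher genes had a median of 1.41 without MITF and 0.09 with it, and the 486 lower genes -1.26 and 0.02. Both sets were selected by their difference without MITF, so larger medians there follow from the selection and do not test a part of MITF. Of the called genes, 27 were higher in both contrasts and 7 lower in both. Another 6 were higher here and lower with MITF, and 18 the reverse. Over all genes, 5.7% were called higher and 4.05% lower without MITF, and no expected overlap was computed. The shared calls include the knocked-out genes themselves, Tfe3 among the higher and Tfeb among the lower.

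The difference between the contrasts was tested in the same fit. It was positive by at least 1 for 710 genes (5.91%) and negative by at least 1 for 659 genes (5.49%) at an unadjusted p under 0.05, and 701 and 658 of these had an adjusted p under 0.05 (limma). Trib3 was lower without MITF (-2.29) and higher with it (1.24 ± 0.12 SE), a difference of -3.53 ± 0.17 SE, adjusted p = 3.96e-13. Chac1 behaved alike, with -1.96 and 1.13 ± 0.10 SE and a difference of -3.09 ± 0.15 SE, adjusted p = 2.63e-13. Of the 43 ATF4 response genes 28 had a negative difference by adjusted p and 0 a positive one, against 16.9% and 18.1% of all genes, and the median with MITF was 0.11. Oca2 went from 2.48 ± 0.19 SE with MITF to -2.03 without, F11r from 2.04 ± 0.19 SE to -3.13, and Pak3, a kinase of the actin cytoskeleton, from -3.42 ± 0.20 SE to 2.52. In contrast, S100a4 was higher in both (2.37 without and 2.02 ± 0.09 SE with MITF), as were Axl (1.16 ± 0.12 SE with MITF) and Rhox5 (1.55 ± 0.18 SE). For the 57 matrix genes the median with MITF was 0.04, and 32 had a positive difference and 5 a negative one by adjusted p. Interferon genes had a median of 0.04 with MITF, with 38 positive and 5 negative differences.

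**Figure D5:**
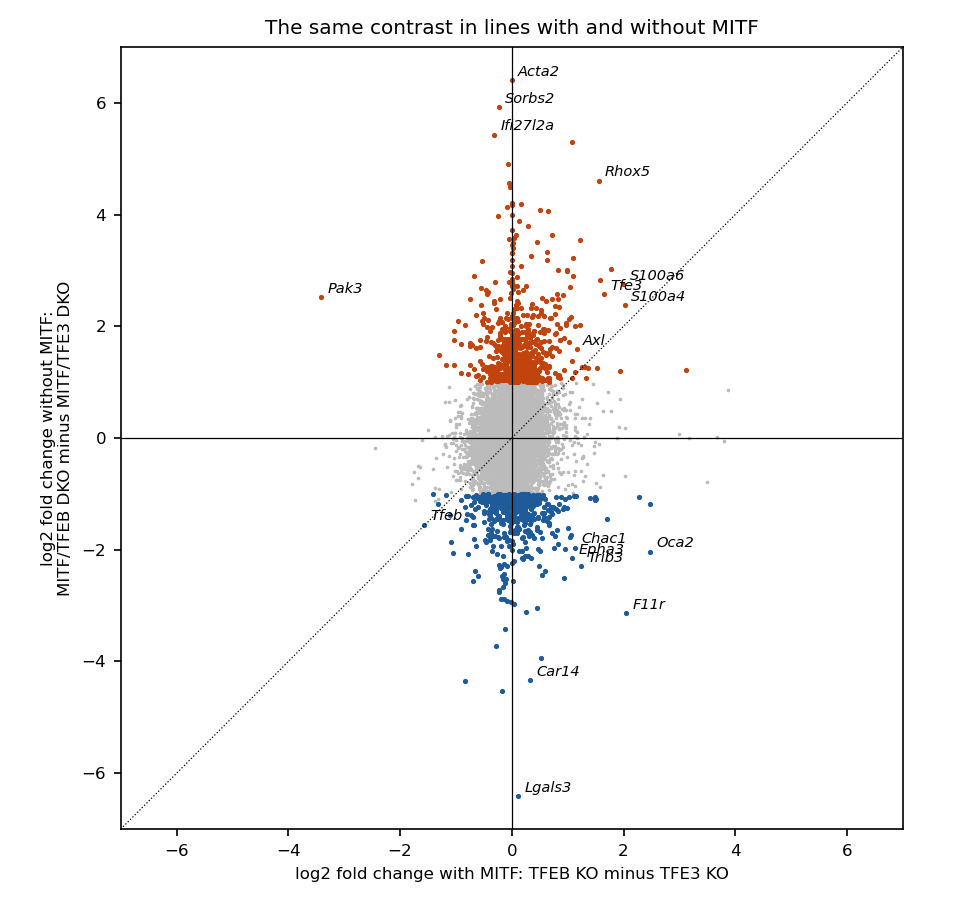
Each point is a gene, with the log2 fold change of the TFEB KO minus the TFE3 KO on the horizontal axis and of the MITF/TFEB DKO minus the MITF/TFE3 DKO on the vertical axis, colored where called in the latter, and the dotted line marks equal values. Most called genes lie near 0 on the horizontal axis, S100a4, S100a6 and Tfe3 are positive on both axes, and Pak3, Oca2 and F11r have opposite signs.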

How the data were processed

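Total RNA of the 8 lines was made into 3′-end libraries with the QuantSeq Forward kit. Per the labels, the submitters' processing notes name FastQC 0.11.9, Trim Galore 0.6.5 with cutadapt 2.10, STAR 2.7.8a, mm39 and edgeR. The counting tool and its strand setting are not given in the sources used here. The authors deposited 1 table of a signal per gene, CPM divided by edgeR's TMM factors, for 12010 genes and 24 libraries. Whole reads were recovered from the steps of the values (99.9% whole within 0.01), giving 18300902 to 26667877 reads per library, and depth limits only genes of few reads.

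From these values log2(CPM + 1) was fitted with limma 3.58.1 (variance trend, 8 groups, all 24 libraries) in R 4.3.3, with Benjamini-Hochberg adjustment over all 12010 genes. Genes were called at 2-fold and an unadjusted p under 0.05, as in the study, and the difference of differences at 1 (log2) and p under 0.05. Scripts were tested on simulated counts. edgeR 4.0.16 on the recovered reads, DESeq2 1.42.0 size factors, other pseudocounts (0.25 and 5), a filter (mean CPM of at least 5), quantile normalization, leaving out each replicate and subtracting the median of 100 neighbors were alternatives. Replicate libraries of a line differed by more than sampling noise in every pair. Positions came from GENCODE vM39 by symbol (11659 genes) or RefSeq synonym (81), and promoters from RefSeq by symbol (9647 genes). Genes named in the text are those the study names from these libraries, the 12 largest rises and falls with an adjusted p under 0.05 and no overlap of libraries, up to 4 members of each list by size of change among those with an adjusted p under 0.05, and the 4 largest differences of differences in each direction, with predicted genes left out. Antisense partners, gene copies and markers of other cells are named beyond this rule, and some genes it covers are not reported here. The lines, gene lists and tests were chosen with earlier results of these data known.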

Additional observations from a re-analysis of the deposited data

Results flagged for a closer look

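These results were singled out because the difference between cells lacking TFEB and cells lacking TFE3 was not the same without and with MITF, by limma's interaction contrast. It passed the threshold for 710 genes in the positive and 659 in the negative direction. The 4 largest positive differences were in Acta2 (6.40 ± 0.24 SE, adjusted p = 6.22e-15), Sorbs2 (6.16 ± 0.22 SE, adjusted p = 3.73e-15), Pak3 (5.94 ± 0.29 SE, adjusted p = 2.81e-13) and Ifi27l2a (5.75 ± 0.27 SE, adjusted p = 1.73e-13). Acta2 was at 0 in all TFEB KO and TFE3 KO libraries, so its difference rests on the lines without MITF. With MITF, Pak3 had 8.63, 11.5 and 11.4 CPM after loss of TFE3 and 0, 0.228 and 0 CPM after loss of TFEB. Without MITF it had 11.4, 12.3 and 12.2 CPM in TFE3-only and 0.872, 0.754 and 2.51 CPM in TFEB-only cells, the opposite order. The 4 largest negative differences were in Lgals3 (-6.53 ± 0.15 SE, adjusted p = 4.84e-19), F11r (-5.17 ± 0.27 SE, adjusted p = 1.66e-12), Car14 (-4.65 ± 0.17 SE, adjusted p = 3.73e-15) and Oca2 (-4.52 ± 0.27 SE, adjusted p = 1.22e-11). With MITF, F11r had 2.89, 3.55 and 3.45 CPM after loss of TFE3 and 17.9, 17.1 and 15.1 CPM after loss of TFEB, and Oca2 had 1.05, 0.606 and 1.21 and 10.9, 10.97 and 7.91 CPM. Of the other 161 named genes, 63 had a positive and 70 a negative difference at an adjusted p under 0.05. Over all genes the shares were 18.1% and 16.9%. Many of the named genes were picked for their difference between the DKOs, which is part of this contrast, so high counts follow from that choice. Each line is a single clone, and clone and genotype cannot be told apart. With 3 libraries a line, Dixon's test for an outlying library was not run, and the counts without each library stand among the processing alternatives.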

How the results depend on the processing

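The 4 counts of genes (685 higher, 486 lower, 710 positive and 659 negative) stayed within 1.5 times their size under most alternatives. With a pseudocount of 5 they were 346 higher and 222 lower genes and 347 positive and 308 negative differences of differences. Among the 9539 genes averaging 5 CPM or more they were 414, 347, 418 and 430, with fewer genes tested. edgeR on the recovered reads, with no added 1, called 935 higher and 781 lower genes, of which 684 and 483 were also called by limma. Leaving out each replicate gave 657 to 734 higher, 468 to 523 lower, 696 to 842 positive and 625 to 723 negative calls. After subtracting the median of 100 neighbors 572 higher and 398 lower genes were called, 494 and 315 of them shared. Same-numbered libraries of the lines deviated with correlations of -0.49, 0.05 and 0.27, and not every library correlated best with its own number, so the numbers do not pair them. A replicate block changed none of the 4 counts, with 685 higher and 486 lower genes and 710 positive and 659 negative differences of differences. Every line holds each number, so such a block leaves each difference as it was and can move only its spread. The unchanged counts therefore do not test the pairing. Of 169 named genes 142 kept their direction and side of the threshold under all 17 alternatives. Most were picked by adjusted p and size of change in the main fit, so this follows in part from the choice. No such share was computed over all genes. An adjusted p threshold, counted among the 17, uses the main fit and can change no single gene. Subtracting the neighbor median turned Scd1 to 0.18, Ngfr to 0.094 and Psmc4 to -0.034, and ended the calls of Nampt and Map1lc3b. Leaving out 1 library put Ngfr between -0.37 and 0.052, Fnip2 between -0.015 and 0.34 and Rragc between -0.25 and 0.025, with the other sign without MITF/TFEB DKO replicate 3, MITF/TFE3 DKO replicate 1 and MITF/TFEB DKO replicate 1, and none of the 3 had passed the test. Met passed without MITF/TFE3 DKO replicate 1 (-0.40). Quantile normalization gave Dct, ranked first in all 6 libraries, the same value in both lines. Of 37 list medians, 26 kept their sign under all alternatives. With CACGTG in place of TCACGTGA the promoter shares were 8.67% of higher and 10% of lower genes, and with TCATGTG, chosen after seeing the data, 3.47% and 5.75%. Windows of 50 genes put 1083 and 951 genes in shifted stretches.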

Other observations

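Of the mitosis genes, 8 of 8 members higher by adjusted p had a TKO mean closer to the MITF/TFEB DKO, and 1 of 8 lower members did, against 87.04% of all genes lower by adjusted p. Ccnb2, cyclin B2, had 52.3, 64.4 and 67.6 CPM in TFE3-only and 105, 85.5 and 101 CPM in TFEB-only cells, with 94.4, 98.2 and 92.7 CPM for the TKO. The TFE3 mRNA left in the knockouts was not equal across lines, since the TKO had 21.7, 19.9 and 17.6 CPM of Tfe3, above the 8.01, 9.75 and 8.14 CPM of the MITF/TFE3 DKO. Among lysosomal hydrolases higher by adjusted p, 5 of 12 were closer to the MITF/TFEB DKO in the TKO, against 83.03% of all genes higher by adjusted p.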
